A study of Mus musculus with 6 samples.

Results

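The genes described here encode 7 S100 calcium-binding proteins, S100a1, S100a4, S100a6, S100a10, S100a11, S100a13 and S100a16, out of the 21367 genes in the deposited table. They were taken by symbol from a list that was proposed with the fold changes between Ptpn6+/mev and wild-type kidneys already known, so they are selected on the same contrast that is described below. Their levels and differences are therefore given as a description, with no p-value, and a count of members past a threshold is not a test of them. The proposed list called them epithelial, but RNA from a whole kidney carries no record of the cell it came from, and that name was not tested.

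S100 proteins are small proteins that usually work as dimers. Each subunit holds a pair of EF hands, the loops that bind calcium, and binding opens a surface that grips a partner protein. Annexins, which bind membranes in the presence of calcium, are frequent partners. Injured tubular epithelium of the kidney is known to express several S100 genes, and other members of the family belong to fibroblasts or to neutrophils.

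The study sequenced poly-A RNA from the kidney of 3 Ptpn6+/mev mice and of 3 wild-type littermates, each mouse 7 weeks old and giving 1 library. The mev, or viable motheaten, allele is a splice-site change in the gene for the tyrosine phosphatase SHP-1, present here on 1 chromosome in every cell of the body, and the labels describe these mice as an SHP-1 knockdown. In all 6 mice the right kidney was removed, the left renal pedicle was clamped for 34 min, and the left kidney was taken at 24 h of reperfusion. Kidneys without ischemia-reperfusion injury (IRI) were not analysed here, so a difference between the groups is a difference after injury. Values of single kidneys are listed in the order of replicates 1, 2 and 3 throughout. The labels do not name the mice, and the p-values below measure the spread between these libraries.

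Ptpn6 itself, on chromosome 6 from 124720707 to 124738714, had FPKM values (fragments scaled to transcript length and to all fragments of the library) of 11.85, 14.7 and 13.6 in the Ptpn6+/mev kidneys and of 17.5, 10.9 and 15.4 in the wild-type kidneys. The groups overlapped, with a log2 fold change of -0.19 (standard error 0.17, adjusted p = 0.715, edgeR quasi-likelihood test), which was -0.34 without wild-type replicate 2 and ranged from -0.34 to -0.06 when single libraries were left out. The level of the RNA does not show whether it is spliced correctly, so it does not check the genotype, and the gene model overlaps that of Gm20531. The libraries held between 10271590 and 12361745 counts. Of these, wild-type replicate 2 stood apart. In it the summed FPKM of 9 fibroblast and smooth muscle markers was 105, against 392 and 396 in wild-type replicates 1 and 3 and 320 to 377 in the Ptpn6+/mev libraries. Log2 fold changes that turn on it are given with and without it. Across all genes, edgeR's quasi-likelihood test called 18 of 13036 tested genes at an adjusted p, or FDR, under 0.05, which is 0.138% of them, and without wild-type replicate 2 it called 237 of 13177, or 1.80%.

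S100a6 was the member with the largest difference between the groups, with about the same level in the 3 wild-type kidneys and 1.97 times that level in the 3 Ptpn6+/mev kidneys. The 2 most abundant members, S100a11 and S100a10, had levels that overlapped between the groups. S100a1, S100a13 and S100a16 were 1.17 to 1.31 times as high in Ptpn6+/mev kidneys as in wild-type kidneys by mean FPKM, with no overlap between the groups, and S100a4 overlapped. All 7 members passed the filter on low counts. As a description only, S100a6 was the 1 member among the genes at an FDR under 0.05 in the higher direction in the quasi-likelihood fit of all genes, where the share of all tested genes was 0.0690%. That call was lost in 4 of the 6 fits that each left out 1 library, those without Ptpn6+/mev replicate 1, 2 or 3 or wild-type replicate 1. It was also lost with the replicate number as a block, where the log2 fold change was 0.90. Since the members were selected with this contrast known, nothing is read from the count.

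The FPKM of 4 of the 7 members, S100a6, S100a1, S100a13 and S100a16, did not overlap between the groups, each of them higher in Ptpn6+/mev. Of all 13036 tested genes, 20.4% did not overlap in either direction, and because the members were selected on this contrast nothing is read from the comparison. FPKM favoured the upward side, with 1824 genes separated upward and 832 downward. Counts scaled to library size with edgeR's TMM factors (trimmed mean of M-values) gave 1257 and 1278, together 19.4% of the tested genes, and on that scale too 4 members were separated, all upward.

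**Figure D1:**
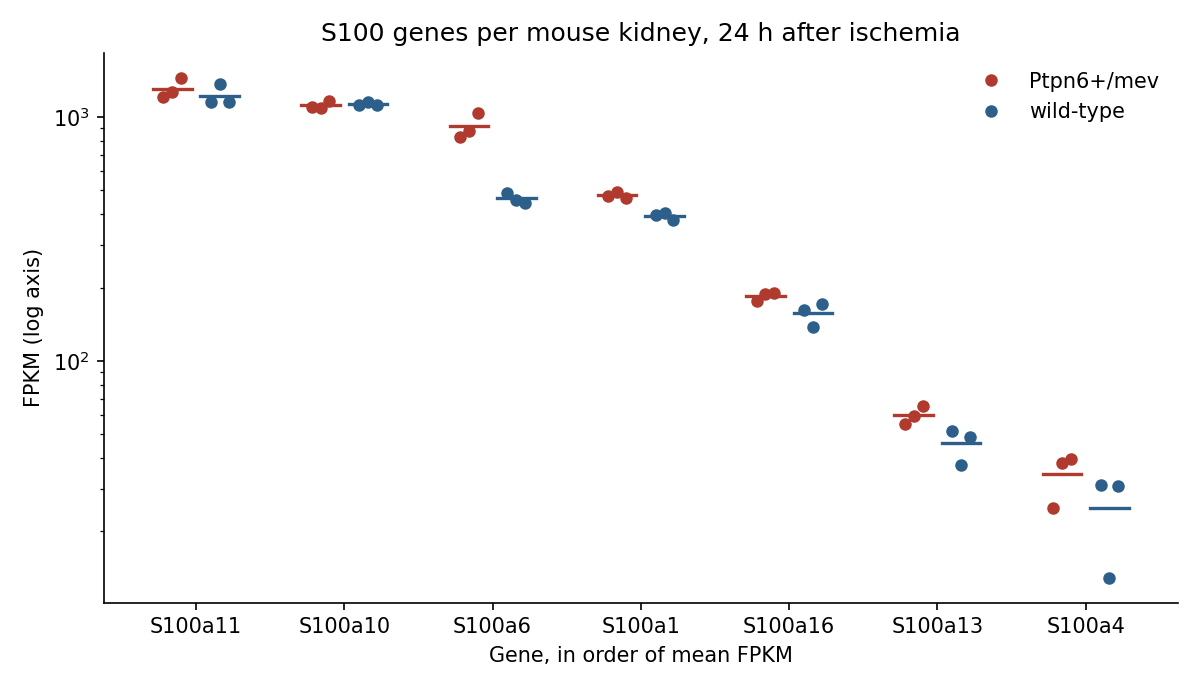
FPKM of the 7 S100 genes in each library on a log axis, with points for the 3 Ptpn6+/mev and 3 wild-type mice and a line at each group's mean. The S100a6 points of the groups lie apart, at 828 to 1041 and 445 to 488, while those of S100a11 and S100a10 overlap.

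The members spanned a wide range of levels. By mean FPKM over the 6 libraries, which is per length, the order was S100a11 (1266), S100a10 (1126), S100a6 (690), S100a1 (435), S100a16 (171), S100a13 (53.0) and S100a4 (29.6). Among the 16529 genes with a count in any library, S100a11 ranked 33 and S100a10 ranked 40, while S100a4 ranked 3053. The 6-library ranges of S100a11 and S100a10 overlapped, as did those of S100a6 and S100a1 and those of S100a13 and S100a4, and the order within each of these pairs held in every library. Taken group by group, the values of S100a6 lay above those of S100a1 and the values of S100a13 above those of S100a4 with no overlap, so these pairs overlapped only where the groups were pooled. S100a11 and S100a10 overlapped in the wild-type kidneys, where they did not differ beyond their spread, and not in the Ptpn6+/mev kidneys. S100a10 lay above S100a6, S100a1 above S100a16 and S100a16 above S100a13 in every library.

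Together the 7 members took 0.254%, 0.263% and 0.288% of the counts in the Ptpn6+/mev kidneys and 0.221%, 0.229% and 0.217% in the wild-type kidneys. In Ptpn6+/mev kidneys S100a6 gave 6209, 6640 and 8152 of the summed counts of 26085, 27277 and 31026. In wild-type kidneys it gave 3841, 3677 and 4026 of 23858, 25095 and 26836. The shares thus include the difference in S100a6 and do not show a rise of every member, since S100a11 and S100a10 overlapped. S100a6 made up 22.3% ± 1.17 (SD, n = 3) of the members' summed FPKM in Ptpn6+/mev kidneys and 13.5% ± 0.767 (SD, n = 3) in wild-type kidneys. The S100a6 share ranged from 21.4% to 23.6% in the first group and from 12.8% to 14.3% in the second, with no overlap.

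Among the members known for binding annexins, S100a6 (calcyclin) also binds the calcyclin-binding protein Cacybp and rises in many proliferating cells. Its FPKM was 828, 878 and 1041 in the Ptpn6+/mev kidneys and 488, 458 and 445 in the wild-type kidneys. The means were 916 ± 112 (SD, n = 3) and 464 ± 22.1 (SD, n = 3), a ratio of 1.97. Every Ptpn6+/mev kidney lay above every wild-type kidney, and the spread within either group was small beside the distance between them. The difference on the TMM scale, a log2 fold change of 0.91 (standard error 0.11), stayed between 0.81 and 0.97 in the 6 fits that each left out 1 library. In wild-type replicate 2 S100a6 was at 0.983 times the mean level of the other wild-type kidneys, and without it the difference was 0.93 on the log2 scale.

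S100a10 (p11) differs from the rest of the family in that its EF hands no longer bind calcium, and it forms a tight complex with annexin A2 at the cell membrane. Its FPKM was 1102, 1088 and 1162 in the Ptpn6+/mev kidneys and 1122, 1157 and 1124 in the wild-type kidneys. Its coefficient of variation was 1.73% in wild-type kidneys, the lowest of the 7 members there, and 3.52% in Ptpn6+/mev kidneys, where that of S100a1 was lower at 2.66%. The groups overlapped, and the log2 fold change was -0.09 (standard error 0.08), and -0.05 without wild-type replicate 2.

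S100a11 (calgizzarin), which binds annexin A1, had FPKM values of 1212, 1266 and 1445 in the Ptpn6+/mev kidneys and of 1157, 1369 and 1148 in the wild-type kidneys. Here the highest wild-type value came from replicate 2, which lay inside the Ptpn6+/mev range. With a standard error of 0.12, the log2 fold change was 0.02. Its sign was not stable, since it ranged from -0.06 to 0.14 when single libraries were left out and was 0.14 without wild-type replicate 2.

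S100a1, best known from heart muscle, where it acts on the calcium pump and release channel of the sarcoplasmic reticulum, had FPKM values of 474, 491 and 466 in the Ptpn6+/mev kidneys and of 397, 404 and 377 in the wild-type kidneys. The groups did not overlap, and both were narrow, with means of 477 ± 12.7 and 393 ± 14.2 (SD, n = 3 each). On the TMM scale the log2 fold change was 0.21 (standard error 0.09), with 0.26 when wild-type replicate 2 was left out.

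S100a16, a widely expressed member, had FPKM values of 176, 188 and 189 in the Ptpn6+/mev kidneys and of 162, 138 and 172 in the wild-type kidneys. The lowest Ptpn6+/mev kidney was just above the highest wild-type kidney, and wild-type replicate 2 was the lowest of all. The log2 fold change was 0.18 (standard error 0.09), and 0.13 without wild-type replicate 2.

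S100a13, which takes part in the release of fibroblast growth factor 1 and interleukin 1 alpha from cells, had FPKM values of 55.2, 59.7 and 65.3 in the Ptpn6+/mev kidneys and of 51.7, 37.3 and 48.8 in the wild-type kidneys. The groups did not overlap, and wild-type replicate 2 was again the lowest library. The log2 fold change of 0.32 (standard error 0.13) was 0.22 without that library.

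S100a4 binds non-muscle myosin and is known from fibroblasts and leukocytes as well as from injured epithelium. Its FPKM was 24.9, 38.1 and 39.8 in the Ptpn6+/mev kidneys and 31.0, 12.9 and 30.6 in the wild-type kidneys. This was the most variable member, with a coefficient of variation of 23.7% in Ptpn6+/mev and 41.5% in wild-type kidneys, and the groups overlapped. On the log2 scale the difference was 0.41 (standard error 0.31), and 0.11 without wild-type replicate 2. The gene model of S100a4 overlaps that of Gm42674, for which no row was used here, so its counts are less certain than those of the other members. None of the 7 members had a fractional count, which can arise where reads are shared out between genes.

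**Figure D2:**
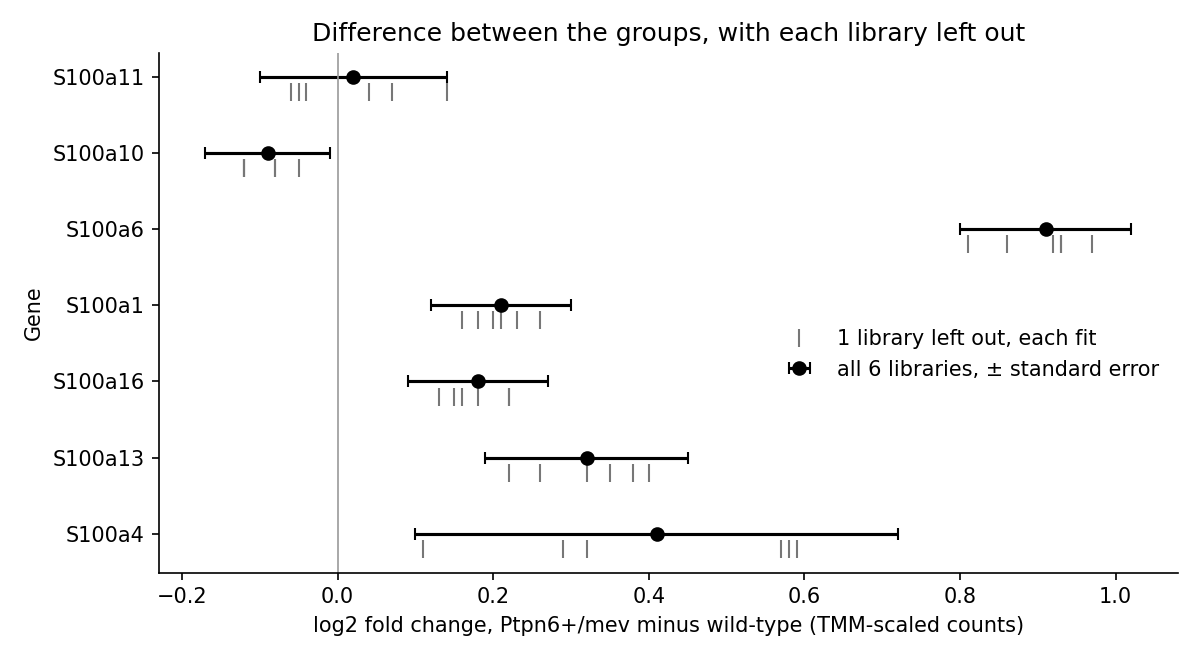
Log2 fold change of each S100 gene, Ptpn6+/mev minus wild-type, as a point with its standard error from all 6 libraries and as ticks from the 6 fits that each left out 1 library. S100a6 lies between 0.81 and 0.97 in these fits, S100a11 falls on both sides of 0, and S100a4 spreads most, from 0.11 to 0.59.

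The low value of S100a4 in wild-type replicate 2 stood beside low values of markers of several other cell types in that library. S100a4 was at 0.420 times the mean of the other wild-type kidneys there, S100a13 at 0.743, S100a16 at 0.828, S100a10 at 1.03, S100a1 at 1.05 and S100a11 at 1.19. The summed FPKM in that library was 0.266 times that of the other wild-type kidneys for fibroblast and smooth muscle markers, 0.467 for endothelium, 0.493 for macrophages and 0.425 for neutrophils. It was 1.09 times as high for proximal tubule, 1.14 for distal nephron and collecting duct, 1.23 for tubular injury and 1.63 for urothelium markers. These sums depended on the most abundant gene of each list. Without Umod the distal nephron and collecting duct sum was 1.90 times as high, and without Krt5 the urothelium sum was 2.20 times as high. Without Slc27a2 the proximal tubule sum was 0.859 times as high, with 5 of the 9 genes below the other wild-type kidneys, and without Spp1 the injury sum was 1.06 times as high, with 4 of the 10 genes below them. Single markers of fibroblasts and smooth muscle were below in 8 of 9 cases, of endothelium in 6 of 6 and of macrophages in 8 of 8, and those of the distal nephron and collecting duct were above in 7 of 8. The part of cell composition in the values of S100a4, S100a13 and S100a16 was not tested, and in bulk RNA fewer cells of a type and less RNA per cell cannot be told apart.

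Between the groups, the defining markers gave the following picture. Of 9 fibroblast and smooth muscle markers, led by Acta2 and Col3a1, 0 were called by edgeR's quasi-likelihood test at an FDR under 0.05, 0 by the exact test or DESeq2 and 0 had an unadjusted p under 0.05. Their median log2 fold change was -0.06, against -0.0024 over all tested genes. Without wild-type replicate 2 that median was -0.53, and 2 of the 9 were called lower in Ptpn6+/mev. Acta2 had an FPKM of 176.78, 133.47 and 138.63 in Ptpn6+/mev and 130.03, 45.01 and 132.98 in wild-type kidneys, which only just failed to overlap, and its log2 fold change was 0.49 (adjusted p = 0.632, edgeR quasi-likelihood test), or 0.15 without wild-type replicate 2. Col3a1 overlapped, with an FPKM of 45.9, 91.6 and 59.9 in Ptpn6+/mev and 79.0, 20.2 and 82.0 in wild-type kidneys, and its log2 fold change was -0.11 (0.964), or -0.58 without that library.

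Of 6 endothelium and 8 macrophage markers, 0 were called, 0 had an unadjusted p under 0.05, and 0 were called by edgeR's exact test or DESeq2. The medians of both lists were 0.20 with all libraries, and -0.14 and -0.05 without wild-type replicate 2. Their most abundant genes were Egfl7 (log2 fold change 0.09, adjusted p = 0.913, edgeR quasi-likelihood test) and Pecam1 (0.18, 0.912) for endothelium and Lyz2 (0.42, 0.717) and C1qb (0.18, 0.790) for macrophages. Without wild-type replicate 2 these log2 fold changes were -0.10 for Egfl7, -0.22 for Pecam1, 0.14 for Lyz2 and -0.01 for C1qb. Neutrophil markers were low, with a summed FPKM of 7.27 to 10.8 in Ptpn6+/mev and 3.76 to 10.1 in wild-type kidneys. Of the 3 tested, Retnlg, Csf3r and Cxcr2, 0 were called by the quasi-likelihood test, the exact test or DESeq2, 0 had an unadjusted p under 0.05, and the median was 0.27, or -0.10 without wild-type replicate 2. Mpo and Elane were at an FPKM of 0 in 5 of the 6 libraries. Lymphocyte markers, led by Nkg7 and Cd8a, summed to 0.470 to 0.910 and 0.660 to 2.99, and 0 of the 7 passed the filter on low counts.

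Of 10 tubular injury markers, 0 were called, 5 had an unadjusted p under 0.05, against 12.2% of all tested genes, and the median log2 fold change was 0.21, or 0.30 without wild-type replicate 2. The 5 were Spp1, which was lower in Ptpn6+/mev, and Havcr1, Krt8, Krt18 and Vcam1, which were higher. Spp1, the osteopontin gene, and Clu, the clusterin gene, were the most abundant, with log2 fold changes of -0.38 (adjusted p = 0.331, edgeR quasi-likelihood test) and 0.08 (0.879), which were -0.22 and -0.04 without wild-type replicate 2. The FPKM of 5 of the 10, Havcr1, Krt8, Krt18, Vim and Vcam1, did not overlap between the groups and was higher in Ptpn6+/mev, and that of 0 was lower, on a scale where 20.4% of all tested genes did not overlap and 1824 of these were higher and 832 lower. Spp1, Clu, Lcn2, Krt20 and Sox9 overlapped. Lcn2 had a log2 fold change of -0.08 (adjusted p = 0.961, edgeR quasi-likelihood test), Krt20 of 0.16 (0.892) and Sox9 of -0.08 (0.922). Without wild-type replicate 2 these were 0.26, 0.63 and -0.19. The summed FPKM of the 10, led by Spp1, overlapped, at 27089 to 33115 in Ptpn6+/mev and 30339 to 39048 in wild-type kidneys. Havcr1, which encodes the injury marker KIM-1, had a log2 fold change of 0.27 (adjusted p = 0.325), the keratin genes Krt8 and Krt18 of 0.28 and 0.55 (0.273 and 0.196), Vim of 0.49 (0.644), or 0.12 without wild-type replicate 2, and Vcam1 of 1.05 (0.188). The exact test called 1 of the 10 and DESeq2 called 2, all higher in Ptpn6+/mev. Of 9 proximal tubule markers, 0 were called and 4 had an unadjusted p under 0.05. The median was -0.44, or -0.55 without that library, and the exact test and DESeq2 each called 2, both lower in Ptpn6+/mev. Their summed FPKM was 942 to 1036 in Ptpn6+/mev and 1191 to 1348 in wild-type kidneys, with no overlap. Slc27a2 and Slc34a1, the most abundant of them, had log2 fold changes of -0.40 and -0.34 (adjusted p = 0.447 and 0.567, edgeR quasi-likelihood test), and of -0.19 and -0.55 without that library. The 2 that the exact test and DESeq2 called were Slc22a6 and Cubn, the 2 of the 9 whose FPKM did not overlap between the groups. Their log2 fold changes were -1.11 and -0.84 (adjusted p = 0.0774 and 0.131, edgeR quasi-likelihood test), and -0.99 and -0.89 without wild-type replicate 2. With wild-type replicate 2 left out, that test called 2 injury markers higher and 3 proximal tubule markers lower in Ptpn6+/mev. These values stood beside the difference in S100a6, and their part in it was not tested.

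Of 8 distal nephron and collecting duct markers, 0 were called by the quasi-likelihood test, the exact test or DESeq2. An unadjusted p under 0.05 was found for 2, against 12.2% of all tested genes. Their median was -0.27, or 0.01 without wild-type replicate 2. Umod had a log2 fold change of -0.13 (adjusted p = 0.833, edgeR quasi-likelihood test) and Aqp2 of -0.54 (0.716), the latter with an FPKM of 431 in wild-type replicate 2 against 122 to 228 in the other 5 libraries. Without that library their log2 fold changes were 0.02 for Umod and 0.29 for Aqp2. The FPKM of 2 of the 8, Slc12a3 and Scnn1g, did not overlap between the groups and was lower in Ptpn6+/mev, where 20.4% of all tested genes did not overlap. Their log2 fold changes were -0.43 and -0.34 (adjusted p = 0.234 and 0.290, edgeR quasi-likelihood test), or -0.40 and -0.25 without wild-type replicate 2. Slc12a1 overlapped and was at 0.39 (0.805), or 1.11 without that library. Urothelium markers were low, with a summed FPKM of 6.35 to 18.0 in Ptpn6+/mev and 10.2 to 17.1 in wild-type kidneys. Of the 4 tested, led by Krt5 and Upk3a, 0 were called by the quasi-likelihood test, the exact test or DESeq2 and 0 had an unadjusted p under 0.05, and the median was -0.62, or -0.07 without wild-type replicate 2.

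**Figure D3:**
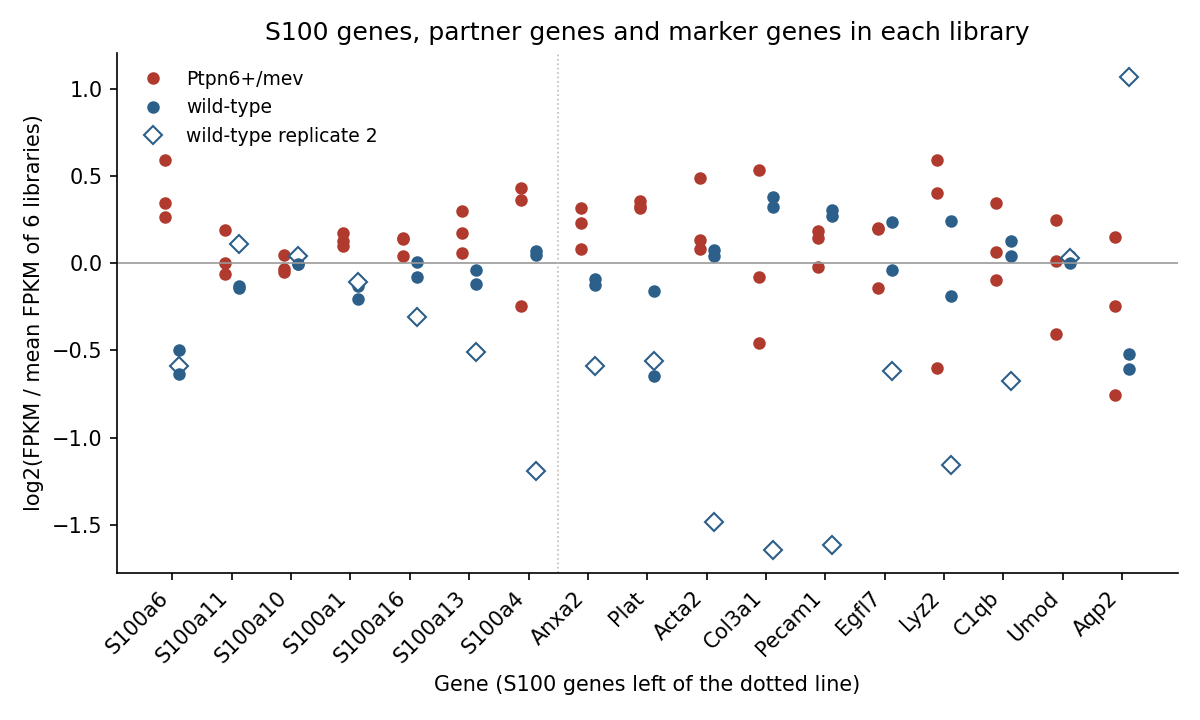
FPKM of each gene in each library divided by its mean over the 6 libraries, on a log2 scale, for the 7 S100 genes left of the dotted line and for partner and marker genes on the right, with an open diamond for wild-type replicate 2. That library is the lowest for S100a16, S100a13, S100a4, Anxa2, Acta2, Col3a1, Pecam1, Egfl7, Lyz2 and C1qb, the highest for Aqp2, and among the other wild-type kidneys for S100a6.

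All 7 members lie on chromosome 3, in the GRCm38 assembly to which the authors aligned the reads and by the GENCODE M21 annotation. S100a1 (90511034 to 90514392, minus strand), S100a13 (90514435 to 90524581), S100a16 (90537254 to 90543151), S100a4 (90603771 to 90606045) and S100a6 (90612882 to 90624181), the last 4 on the plus strand, belong to a cluster of 12 S100 genes within 185 kb. S100a11 (93520488 to 93526287) and S100a10 (93555080 to 93564643), both on the plus strand, lie 2.82 Mb further on and 28.8 kb from each other. All 5 members in the larger cluster had a log2 fold change above 0, from 0.18 to 0.91, and the pair in the other cluster was near 0, at 0.02 and -0.09. Other S100 genes tested in the larger cluster went both ways with all 6 libraries. They were at -0.34 for S100a14, -0.19 for S100a8, 0.02 for S100a9 and 1.52 for S100a3. Since the members were selected on this contrast, the split between them is not a test of position.

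**Figure D4:**
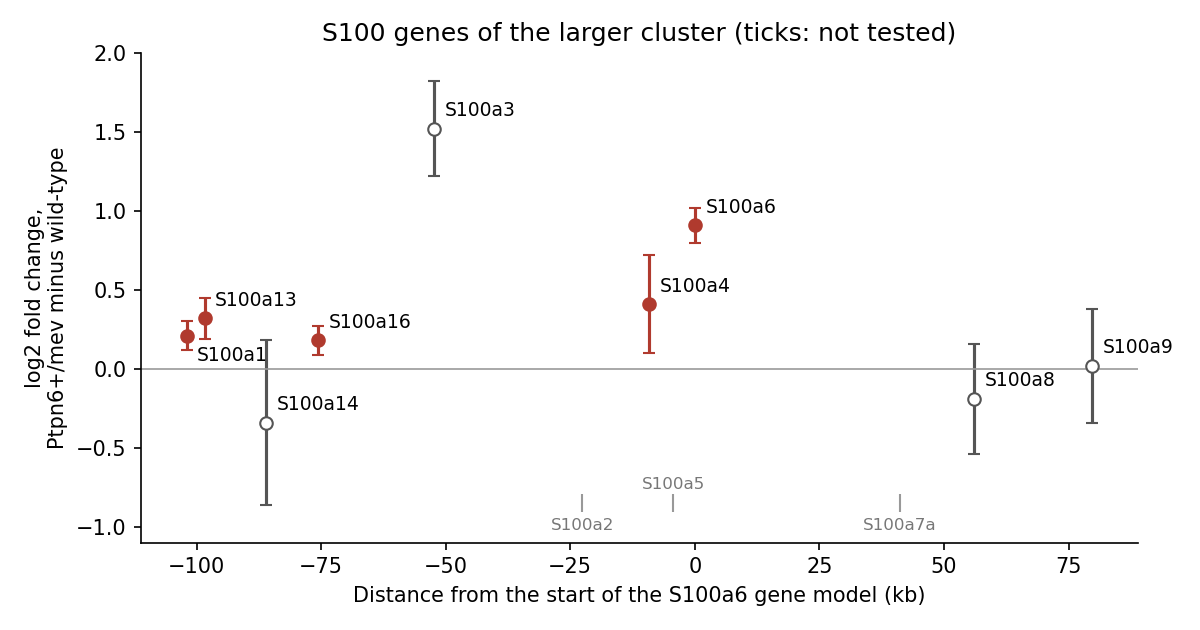
Log2 fold change, Ptpn6+/mev minus wild-type, with its standard error for the S100 genes of the larger cluster, against the distance of each gene model's start from that of S100a6 in kb. Filled points are members, open points are other S100 genes and ticks mark 3 genes that were not tested. S100a6 at 0.91 and S100a3 at 1.52 lie above the other genes.

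The other S100 genes of the table numbered 10, and 5 of them passed the filter on low counts. By edgeR's quasi-likelihood test 0 of the 5 were called, 1 had an unadjusted p under 0.05, where 12.2% of all tested genes did, and their median log2 fold change was -0.17, or 0.05 without wild-type replicate 2. S100g, or calbindin-D9k, which carries calcium through cells of the distal tubule, had a mean FPKM of 936 over the 6 libraries, between those of S100a10 and S100a6. Its FPKM was 1128, 913 and 676 in Ptpn6+/mev and 951, 1195 and 753 in wild-type kidneys, with wide overlap and a log2 fold change of -0.17 (standard error 0.23, adjusted p = 0.836, edgeR quasi-likelihood test), which was 0.05 without wild-type replicate 2.

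S100a8 and S100a9 form calprotectin, the S100 complex of neutrophils and other myeloid cells. S100a9 had an FPKM of 14.9, 42.4 and 22.4 in Ptpn6+/mev and 29.2, 18.2 and 27.8 in wild-type kidneys, with a log2 fold change of 0.02 (standard error 0.36, adjusted p = 0.991, edgeR quasi-likelihood test). S100a14, an epithelial member, ranged from 4.47 to 14.1 within the Ptpn6+/mev group, with a difference of -0.34 on the log2 scale (standard error 0.52, adjusted p = 0.861, same test). None of these genes separated the groups. Without wild-type replicate 2 S100a9 and S100a14 changed sign, S100a9 to -0.14 and S100a14 to 0.29, and S100a8 was at -0.24.

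S100a3, which lies between S100a16 and S100a4 and is named here because of its values, had an FPKM of 5.49, 6.03 and 6.89 in Ptpn6+/mev and 2.39, 1.52 and 2.16 in wild-type kidneys. The groups did not overlap and the log2 fold change was 1.52 (standard error 0.30), but the gene missed the threshold (adjusted p = 0.102, edgeR quasi-likelihood test, 0.0726 without wild-type replicate 2). The exact test, which called 2.99% of all genes, gave an adjusted p of 0.00171, and DESeq2, which called 2.97%, gave 0.0183. S100a3 was the 1 gene of the 5 that either tool called, and its gene model overlaps those of S100a2 and Gm42674. S100a5, next to S100a6, had an FPKM of 0 in 5 libraries and of 0.22 in Ptpn6+/mev replicate 3, and S100a2 was listed at 0 in all 6.

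Partners and receptors of S100 proteins made up a list of 24 genes, of which 21 were tested. The quasi-likelihood test called 0 of them at an FDR under 0.05 and 8 had an unadjusted p under 0.05, against 12.2% of all tested genes. Of these 8, Anxa1, Anxa2, Plat, Ahnak and Tlr4 were higher in Ptpn6+/mev and their groups did not overlap. Anxa6 (log2 fold change -0.34, adjusted p = 0.242, edgeR quasi-likelihood test) and the calcium channel genes Trpv5 (-0.47, 0.321) and Trpv6 (-0.82, 0.402) were lower, the groups of Trpv5 and Trpv6 without overlap. Without wild-type replicate 2 Trpv6 was at -0.52. Over the whole list the log2 fold change was above 0 in 10 and below 0 in 11, with a median of -0.00, or 0.03 without wild-type replicate 2. The exact test and DESeq2 each called 3, Anxa1, Plat and Ahnak, all higher in Ptpn6+/mev, and leaving out wild-type replicate 2 brought 2 of these, Anxa1 and Plat, past the quasi-likelihood threshold. In the full fit Anxa1 had a log2 fold change of 0.84 (standard error 0.14, adjusted p = 0.0685, edgeR quasi-likelihood test, 0.0193 without that library).

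Annexin A2, the partner of S100a10, had an FPKM of 784, 871 and 925 in Ptpn6+/mev and 680, 493 and 697 in wild-type kidneys. The groups did not overlap, and wild-type replicate 2 was the lowest library. The log2 fold change of Anxa2 was 0.41 (standard error 0.12, adjusted p = 0.210, edgeR quasi-likelihood test), and 0.29 (adjusted p = 0.125) without that library. S100a10 in the same libraries stayed between 1088 and 1162.

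Plat, the gene for tissue plasminogen activator, whose substrate plasminogen is also bound by the complex of S100a10 and annexin A2, had an FPKM of 163, 158 and 159 in Ptpn6+/mev and 80.9, 85.9 and 114 in wild-type kidneys. The groups lay well apart, with a log2 fold change of 0.71 (standard error 0.12, adjusted p = 0.0786, edgeR quasi-likelihood test, 0.0335 without wild-type replicate 2). Bsg, or basigin, a cell surface receptor of S100a9, overlapped between the groups, at 465 to 472 and 431 to 469 (log2 fold change -0.00, adjusted p = 0.995).

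Cacybp, the calcyclin-binding protein, named for its binding to S100a6, had an FPKM of 49.9, 43.1 and 48.6 in Ptpn6+/mev and 38.5, 30.2 and 43.8 in wild-type kidneys, with a log2 fold change of 0.14 (standard error 0.10, adjusted p = 0.633, edgeR quasi-likelihood test). It is named for its tie to S100a6 and after its values were seen. The cell surface receptors Ager and Tlr4 were low, at 0.42 to 0.86 and 0.82 to 1.84 over the 6 libraries. The log2 fold change was -0.26 (adjusted p = 0.876), or -0.04 without wild-type replicate 2, for Ager and 0.76 (adjusted p = 0.207) for Tlr4 in the same test.

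Other EF-hand sensors and buffers of calcium were 16 genes, 13 of them tested. The quasi-likelihood test, the exact test and DESeq2 called 0 of them, 3 had an unadjusted p under 0.05, and the median log2 fold change was 0.09, or 0.18 without wild-type replicate 2. Capns1, the small calpain subunit, had a log2 fold change of 0.19 (adjusted p = 0.338, edgeR quasi-likelihood test), Calm3, one of the calmodulin genes, of -0.06 (0.851), and Cib1 of 0.02 (0.955). The last 2 were -0.11 and 0.04 without wild-type replicate 2.

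The genes whose profile over the 6 libraries was closest to that of S100a6 were sought among 11840 tested genes outside the S100 family with a mean FPKM of at least 1. Likeness was the root mean square difference between centred profiles of log2 CPM, which is a count relative to its library's total after TMM scaling. The 5 closest were Map6 (0.09), Anxa1 (0.11), Dynlt1b (0.13), Higd1b (0.14) and Cenpa (0.14). Among the members themselves S100a13, at 0.32, was the closest to S100a6 and S100a10, at 0.50, the farthest, while S100a10 and S100a11 were only 0.10 apart.

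Anxa1 was thus both a partner of S100 proteins and close in profile to S100a6. Its FPKM was 46.3, 61.8 and 62.3 in Ptpn6+/mev and 30.8, 31.2 and 28.7 in wild-type kidneys. The groups lay apart, with Ptpn6+/mev replicate 1 the lowest of its group as it was for S100a6. Genes close to S100a6 are high in the same libraries by construction, so their likeness to it is a description. Map6, Higd1b and Cenpa had a mean FPKM of 1.14, 1.25 and 1.45, and their closeness rests on few counts, from 6 to 45 per library.

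Dynlt1b, a dynein light chain gene, was far better measured, with an FPKM of 173, 175 and 176 in Ptpn6+/mev and 79.4, 76.9 and 76.7 in wild-type kidneys. Its counts were fractional, which can arise where reads are shared out between similar genes, so its level is less certain.

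Promoter windows of 300 bases, from 250 before to 50 after a gene's start in RefSeq's annotation of GRCm38.p6, were available for 6 of the 7 members, in 7 windows, and S100a10 had no entry. The bases before the gene models of S100a6 and S100a11 are printed because S100a6 differed between the groups and the more abundant S100a11 overlapped. Both are on the plus strand, in lower case, and capitals mark matches to the motifs searched.
S100a6, chr3:90612644-90612881: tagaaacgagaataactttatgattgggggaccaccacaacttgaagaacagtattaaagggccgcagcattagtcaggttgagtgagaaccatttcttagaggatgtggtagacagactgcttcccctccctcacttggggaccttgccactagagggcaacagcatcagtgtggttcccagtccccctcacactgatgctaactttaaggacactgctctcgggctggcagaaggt
S100a11, chr3:93520246-93520487: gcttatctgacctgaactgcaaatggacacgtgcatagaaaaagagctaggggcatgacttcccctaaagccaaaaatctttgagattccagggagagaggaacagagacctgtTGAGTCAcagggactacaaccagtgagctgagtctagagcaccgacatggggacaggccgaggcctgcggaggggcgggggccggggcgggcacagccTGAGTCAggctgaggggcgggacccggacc

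The letters searched on both strands were TGANTCA for AP-1, GGAATG for TEAD, TGACNNNGC for the antioxidant response element, TATAAA for the TATA box, and the NF-kB motif by name. The AP-1 letters occurred in 7.81% of all 32851 windows, those of TEAD in 14.7%, the antioxidant response element in 12.4%, NF-kB in 8.46% and TATAAA in 13.6%. The S100a11 window held 2 AP-1 matches, 136 and 38 bases before the start, and the S100a6 window held no match to any of the 5. One of the S100a16 windows held an AP-1 match, the other a match to the antioxidant response element, and the S100a4 window held TATAAA 31 bases before the start. TEAD and NF-kB matched in 0 of the 7 windows. A match is a run of letters and not a site in use, and no match says only that these letters are not in the window.

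S100a1 and S100a13 are transcribed away from each other, and 42 bases separate their gene models. That stretch is shown because the start regions of these members are shared, and it held none of the motifs.
S100a1 to S100a13, chr3:90514393-90514434, plus strand: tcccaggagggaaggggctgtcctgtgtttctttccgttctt
The levels of this head-to-head pair were far apart, since S100a1 had a mean FPKM of 435 and S100a13 of 53.0. Wild-type replicate 2 was the lowest library for S100a13 and the highest wild-type library for S100a1, at 404.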

How the data were processed

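RNA-seq of left kidneys from 3 Ptpn6+/mev and 3 wild-type mice gave 1 library per mouse, grouped by the sample labels. The authors trimmed the reads, aligned them to GRCm38.p5 with TopHat and computed FPKM values with Cufflinks; the submitters' processing notes also list Bowtie2, TopHat2 2.0.3.12 and RSEM. The authors deposited FPKM and estimated counts, 10271590 to 12361745 per library, and the tool that made the counts is not given in the sources used here. Expected counts were rounded, and genes were filtered with filterByExpr, normalized by TMM and tested with edgeR 4.0.16 in R 4.3.3, by the quasi-likelihood test with Benjamini-Hochberg adjustment over 13036 genes. Standard errors were taken from the log2 fold change and the F statistic. Log2 CPM used a prior count of 2. Alternatives used DESeq2 1.42.0, limma 3.58.1, edgeR's exact test, other scalings and filters, a replicate block, and each library left out. The tests were also run on simulated data.

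The members and lists were chosen with earlier results of these data known. Named were every member, Ptpn6, any called S100 gene or partner, the most abundant 3 genes of the lists of other S100 genes, partners and EF-hand genes, the most abundant 2 of each marker list, and the 5 genes closest to S100a6. S100a3, Cacybp, Tlr4, Ager, Anxa6, Trpv5, Trpv6, S100a2, S100a5, S100a8, Ahnak, Havcr1, Krt8, Krt18, Vim, Vcam1, Lcn2, Krt20, Sox9, Slc22a6, Cubn, Slc12a3, Scnn1g, Slc12a1, Cxcr2, Mpo and Elane were named after their values were seen. Libraries of a group differed by more than sampling noise (chi-square per degree of freedom 6.48 to 45.3). Positions are from GENCODE M21. Figures used Python 3.11.15 and matplotlib 3.10.9.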

Additional observations from a re-analysis of the deposited data

How the results depend on the processing

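The median log2 fold change of the 7 members, 0.21, moved by less than the spread between libraries in all 15 alternatives, the number of members separated upward was within 1.5 times of 4 in the 7 tried for it, and S100a6 kept its sign in all 15. As a description of members selected on this contrast, S100a6, the 1 member at an FDR under 0.05, was past it in 10 of the 15; the number of members called was 0 with the replicate block and ran from 0 to 1 when single libraries were left out, being 0 without any 1 of the Ptpn6+/mev libraries and without wild-type replicate 1. Those fits have fewer samples or fewer residual degrees of freedom. The fits without wild-type replicate 2 or 3 also have fewer samples and kept the call, and the cause of the loss was not tested. S100a1 moved by more than its spread in 4 alternatives and S100a10 in 3, with no call. The number of genes called, 18, was 387 with DESeq2, 390 with the exact test and 52 with no filter on low counts, and ran from 1 to 237 with single libraries left out. The other S100 genes called, 0, were 1 with DESeq2, the exact test and limma (log2 FPKM, pseudocount 1). The partners and receptors called, 0, were 3 with DESeq2 and the exact test and 1 with no filter, and ran from 0 to 2 with single libraries left out; other EF-hand genes stayed at 0. The causes of the differences between tools were not tested. Replicate numbers are shared between the groups, and the labels do not say whether equal numbers pair the mice. The correlations of deviations from the group means were -0.144, -0.184 and -0.13 for equal numbers and -0.0101 to 0.158 for unequal numbers. Deviations within a group sum to 0, so these values constrain each other and cannot show whether the mice are paired. With the replicate block 1 gene was called. At this depth S100a5 and S100a2, at or near 0, could not be compared between the groups.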
